A study of Danio rerio with 3 samples.

Results

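Genes that the tumour suppressor p53 activates were followed in whole zebrafish embryos (Danio rerio, Tuebingen strain) at 24 hours post fertilization. The genes were 31 known or candidate p53 targets, and a gene was taken into the counts when its symbol stood in the symbol column of the expression table, which held 28 of them among 25961 genes. Of these 28, 26 had a mean of 1 FPKM (fragments per kilobase, relative to library size) or more over the 3 libraries, as had 16429 genes of the table. The remaining 2, fas and zmat3, lay under that level. Another 2, rps27l and ei24, were found through their Ensembl identifiers and are described outside the counts, and aen was not matched.

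The libraries came from embryos injected at the 1-cell stage with 6 ng of a morpholino against hnrnpaba, with 3 ng of the same morpholino, or with 3 ng of a standard control morpholino. A morpholino is an antisense oligomer that blocks translation or splicing, and hnrnpaba is a zebrafish counterpart of HNRNPAB, an RNA-binding hnRNP protein. Each group was 1 library made from 30 pooled embryos, so that no difference has a replicate check and no p-value is given. The control column of the table is labelled as a control at 24 h with no morpholino or dose in its name, and every comparison with it assumes that it is the control morpholino library. All 3 groups were injected, no uninjected embryos were analysed here, and the 6 ng library differed from the control in mass as well as in the sequence of the morpholino. The labels do not say whether this morpholino acts on translation or on splicing.

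p53 is a transcription factor that is normally held low by Mdm2, a ubiquitin ligase whose own gene is a p53 target, and stress that frees p53 from Mdm2 switches on genes for growth arrest, cell death, metabolism and repair. Some morpholinos are known to raise p53 target genes in zebrafish embryos whatever RNA they were designed against. The design holds no second hnrnpaba morpholino and no embryos without p53, so an effect of losing hnrnpaba and an effect of the oligomer itself cannot be told apart here.

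The libraries held 13557636 fragments at 6 ng, 17748075 at 3 ng and 14589056 in the control, as recovered from the steps of the FPKM values. hnrnpaba itself stood at 342 FPKM at 6 ng, 459 FPKM at 3 ng and 442 FPKM in the control. Markers fixed for the tissues of a 24-hour embryo were present in each library, apart from the lens gene cryaa and the yolk gene ttr, which stayed under 0.5 FPKM throughout. The sum of 4 lens markers was 10.3 FPKM at 6 ng, 35.5 FPKM at 3 ng and 78.7 FPKM in the control, and that of 4 primitive red cell markers was 1346, 1511 and 584 FPKM in that order. The summed levels of the other 6 tissues lay between 0.398 and 1.81 times the control. The lowest was that of the hatching gland at 3 ng, whereas at 6 ng the hatching gland stood at 1.41 times the control. In a whole embryo, fewer cells of a type and less RNA per cell cannot be told apart, and the part of these shifts in the p53 target genes was not tested.

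Many p53 target genes were far higher in both hnrnpaba morphant libraries than in the control library. Each fold printed for a gene is its FPKM in one library divided by that in another, with nothing added, and the bracketed 95% exact interval covers counting error alone. Of the 26 measured target genes, 16 exceeded the control by 2-fold or more at 6 ng and 0 fell short of it by as much, on the log2 scale of FPKM + 1 used for all counts. The shares over all 16429 genes were 6.28% on the higher side and 4.53% on the lower side. At 3 ng, 11 of the 26 were at least 2-fold higher and 0 lower, against 3.68% and 2.2% of all genes. The counting interval of the fold lay above 1 for 23 of the 26 at 6 ng and for 21 at 3 ng, against 38.5% and 32.0% of all genes, and below 1 for 1 and 2 of them, against 28.0% and 29.2%. Such an interval excludes 1 more readily in a gene with more fragments. A mean of 5 FPKM or more was reached by 25 of the 26, against 9688 of the 16429 genes. No share at matched levels was taken, here or below. The median log2 difference of the 26 was 1.18 at 6 ng and 0.70 at 3 ng, against 0.08 and 0.02 over all genes. A gene low in the control could enter through its morphant values, as bbc3 did, and over all 28 genes without the filter the medians were 1.12 and 0.64. Both comparisons share the control library, so they are not independent of each other. The genes were chosen with earlier results of these data known, so their excess over all genes is not independent support for a p53 response. Among 39 other genes described as p53 targets, given further below, the medians were 0.17 and 0.16. The 11 genes past 2-fold at both doses were mdm2, cdkn1a, ccng1, baxa, bbc3, gadd45aa, sesn3, phlda3, casp8, foxo3b and triap1. Another 5 (pmaip1, gadd45ba, sesn1, tnfrsf1a and plk3) passed 2-fold at 6 ng but not at 3 ng.

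**Figure D1:**
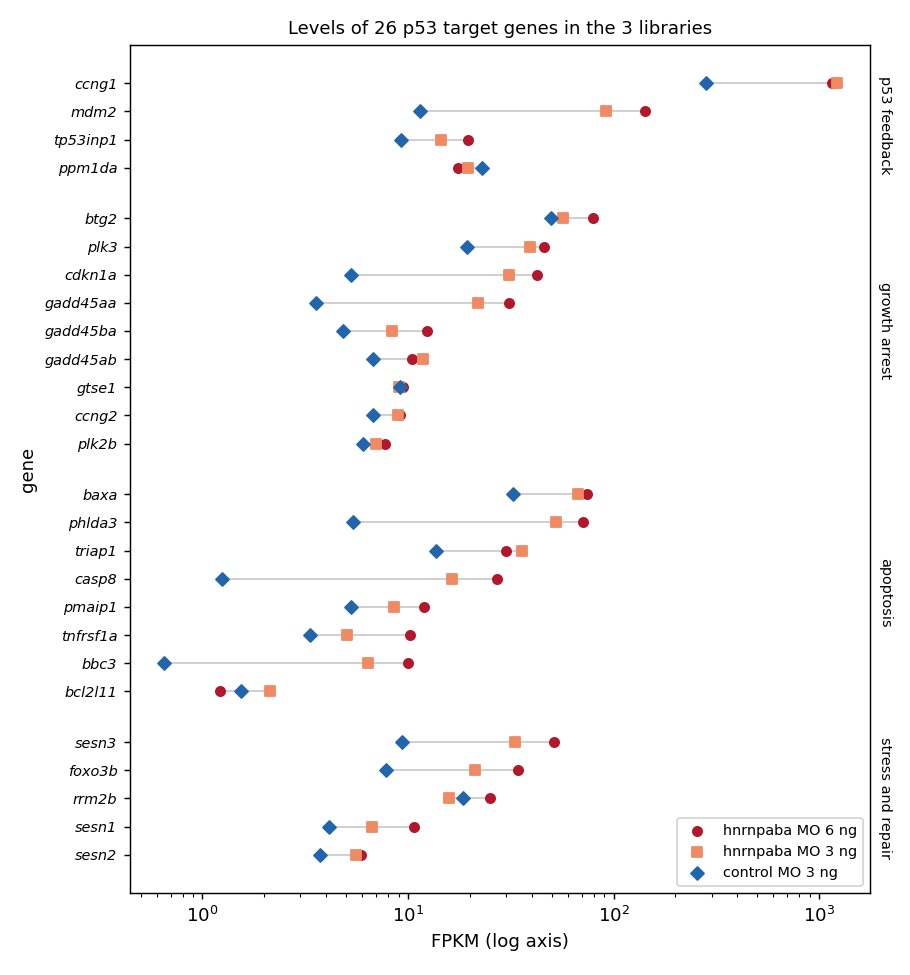
FPKM (log axis) of the 26 measured p53 target genes at 6 ng of hnrnpaba morpholino (circles), at 3 ng (squares) and in the control library (diamonds), 1 point per library and gene, grouped by role. In 19 of the 26 genes the level was highest at 6 ng, next at 3 ng and lowest in the control, and ccng1 lay far above the rest.

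The genes that act back on p53 were split. mdm2 (ENSDARG00000033443, chromosome 4, 23125689 to 23136195, plus strand) stood at 142 FPKM at 6 ng, 91.7 FPKM at 3 ng and 11.4 FPKM in the control. Its folds over the control were 12.4 (11.1 to 13.97) and 8.04 (7.17 to 9.04), and 13 of the 16429 genes had a larger log2 difference at 6 ng and 10 at 3 ng. ccng1, which encodes cyclin G1, a partner of protein phosphatase 2A that acts on Mdm2 in mammals, was the most abundant target gene (ENSDARG00000076667, chromosome 14, 22129096 to 22140213, plus strand). It stood at 1155 FPKM at 6 ng, 1219 FPKM at 3 ng and 281 FPKM in the control, with folds of 4.11 (4.02 to 4.21) and 4.34 (4.25 to 4.44). ccng1 carried 59.4% of the summed FPKM of the 28 genes at 6 ng, 67.1% at 3 ng and 51.7% in the control. Without it, the sum was 791 FPKM at 6 ng, 597 FPKM at 3 ng and 262 FPKM in the control.

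Of the other feedback genes, neither passed the 2-fold limit on the log2 scale, and only ppm1da lay below the control. tp53inp1, a stress-induced cofactor of p53 and of autophagy, stood at 19.5 FPKM at 6 ng, 14.6 FPKM at 3 ng and 9.29 FPKM in the control. Its folds were 2.10 (1.78 to 2.49) and 1.57 (1.33 to 1.86), so both intervals lay above 1. The log2 difference of tp53inp1 at 6 ng, 0.996, fell just short of the limit. ppm1da, which encodes the Wip1-type phosphatase that switches off damage signalling in mammals, stood at 17.5 FPKM at 6 ng, 19.6 FPKM at 3 ng and 22.97 FPKM in the control. Its folds were 0.763 (0.686 to 0.849) and 0.853 (0.774 to 0.939), so both intervals lay below 1. Its paralog ppm1db stood at 5.30, 5.24 and 4.45 FPKM in that order.

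Among the 9 genes of growth arrest, cdkn1a and gadd45aa stood far above the control at both doses, and the others were less than 2-fold from it at 3 ng on the log2 scale with its pseudocount. cdkn1a encodes p21, the cyclin-dependent kinase inhibitor that carries out much of the p53 arrest (ENSDARG00000076554, chromosome 22, 603382 to 607812, minus strand). It stood at 42.4 FPKM at 6 ng, 31.1 FPKM at 3 ng and 5.29 FPKM in the control, with folds of 8.01 (6.45 to 10.05) and 5.89 (4.74 to 7.38). gadd45aa, a growth arrest and DNA damage gene (ENSDARG00000043581, chromosome 2, 10280645 to 10284572, plus strand), stood at 30.9 FPKM at 6 ng, 21.99 FPKM at 3 ng and 3.56 FPKM in the control. Its folds were 8.69 (6.71 to 11.4) and 6.18 (4.77 to 8.14).

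The Gadd45 genes, whose products bind stress kinases and cell cycle proteins, did not share 1 pattern. gadd45ab, the second copy of the alpha gene, stood at 10.5 FPKM at 6 ng, 11.8 FPKM at 3 ng and 6.78 FPKM in the control, with folds of 1.54 (1.22 to 1.96) and 1.74 (1.40 to 2.18). gadd45ba stood at 12.4, 8.37 and 4.83 FPKM in that order, past 2-fold at 6 ng with a fold of 2.56 (2.05 to 3.22). Of the family members outside the 31 genes, gadd45ga stood at 14.8 FPKM at 6 ng, 12.3 FPKM at 3 ng and 5.27 FPKM in the control, and gadd45bb at 7.95, 8.65 and 3.60 FPKM. gadd45gb.1 went the other way, at 10.9 FPKM at 6 ng, 23.4 FPKM at 3 ng and 38.0 FPKM in the control, with folds of 0.287 (0.244 to 0.337) and 0.615 (0.550 to 0.688).

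Of the remaining growth arrest genes, plk3 was past 2-fold at 6 ng and the others were not. plk3, a Polo-like stress kinase, stood at 46.1 FPKM at 6 ng, 39.4 FPKM at 3 ng and 19.3 FPKM in the control, and its log2 difference was 1.22 at 6 ng and 0.99 at 3 ng, just under the limit. btg2, an antiproliferative gene, stood at 79.3, 56.9 and 49.4 FPKM in that order, with folds of 1.60 (1.52 to 1.70) and 1.15 (1.09 to 1.22). plk2b had folds of 1.28 (1.07 to 1.55) and 1.16 (0.969 to 1.39), and ccng2, a cyclin G gene that in mammals answers to FoxO factors, had folds of 1.35 (1.18 to 1.55) and 1.31 (1.16 to 1.497). gtse1, a gene expressed in G2 and S phase whose product restrains p53 in mammals, stood at 9.46 FPKM at 6 ng, 9.07 FPKM at 3 ng and 9.20 FPKM in the control. It was placed here and not with the genes that act back on p53, and roles were assigned with the values known. Its folds of 1.03 (0.849 to 1.25) and 0.986 (0.823 to 1.18) did not differ from 1 beyond counting error.

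The largest folds of the 26 were those of the cell death genes casp8, bbc3 and phlda3. The intervals of bbc3 and phlda3 overlapped that of mdm2 at both doses. On the log2 scale of FPKM + 1 at 6 ng, mdm2 came next after casp8 (3.53 and 3.64), and bbc3 stood at 2.74. casp8 encodes the initiator caspase of the death receptor pathway (ENSDARG00000058325, chromosome 6, 13045885 to 13058979, plus strand). It stood at 27.09 FPKM at 6 ng, 16.4 FPKM at 3 ng and 1.25 FPKM in the control, with folds of 21.7 (15.7 to 30.7) and 13.1 (9.48 to 18.6). bbc3 encodes Puma, a BH3-only protein that frees Bax and Bak (ENSDARG00000069282, chromosome 15, 23745217 to 23761580, minus strand). It stood at 10.01 FPKM at 6 ng, 6.38 FPKM at 3 ng and 0.648 FPKM in the control, with folds of 15.5 (11.0 to 22.3) and 9.84 (6.997 to 14.2). The control value rested on 36 fragments for bbc3 and on 39 for casp8, and the intervals were wide for that reason.

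phlda3, whose product restrains the survival kinase Akt, stood at 70.8 FPKM at 6 ng, 52.5 FPKM at 3 ng and 5.39 FPKM in the control (ENSDARG00000037804, chromosome 23, 5756442 to 5759242, minus strand). Its folds were 13.1 (10.9 to 16.0) and 9.73 (8.05 to 11.9), and 14 genes of the table had a larger log2 difference at 6 ng and 5 at 3 ng. baxa, the pore-forming effector of mitochondrial cell death, stood at 74.3 FPKM at 6 ng, 67.2 FPKM at 3 ng and 32.4 FPKM in the control, with folds of 2.29 (2.12 to 2.48) and 2.07 (1.92 to 2.23). Its log2 difference at 3 ng was 1.03, and its call was lost when the libraries were rescaled. pmaip1, which encodes the BH3-only protein Noxa, stood at 12.0, 8.52 and 5.27 FPKM in that order. The folds of pmaip1 came to 2.28 (1.77 to 2.97) at 6 ng and 1.62 (1.25 to 2.11) at 3 ng. The 6 ng call was lost when the libraries were rescaled by the median ratio.

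Genes of death receptors and of the survival side were more mixed. tnfrsf1a, the main receptor of tumour necrosis factor, stood at 10.2 FPKM at 6 ng, 5.05 FPKM at 3 ng and 3.34 FPKM in the control, with folds of 3.06 (2.61 to 3.59) and 1.51 (1.28 to 1.796). fas, the death receptor of Fas ligand, was at 0.960 FPKM at 6 ng, 0.122 FPKM at 3 ng and 0.595 FPKM in the control. These were recovered as 6, 1 and 4 fragments, the fewest that fit the values. With those fragments, the intervals of fas included 1 in each comparison. triap1, a small mitochondrial protein gene known to limit apoptosis, stood at 29.9, 35.7 and 13.6 FPKM in that order, with folds of 2.19 (1.84 to 2.61) and 2.62 (2.23 to 3.09). The 6 ng call of triap1 was lost when the libraries were rescaled by the median ratio. bcl2l11, which encodes the BH3-only protein Bim, stood at 1.22 FPKM at 6 ng, 2.13 FPKM at 3 ng and 1.54 FPKM in the control, and its intervals included 1 in each comparison.

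**Figure D2:**
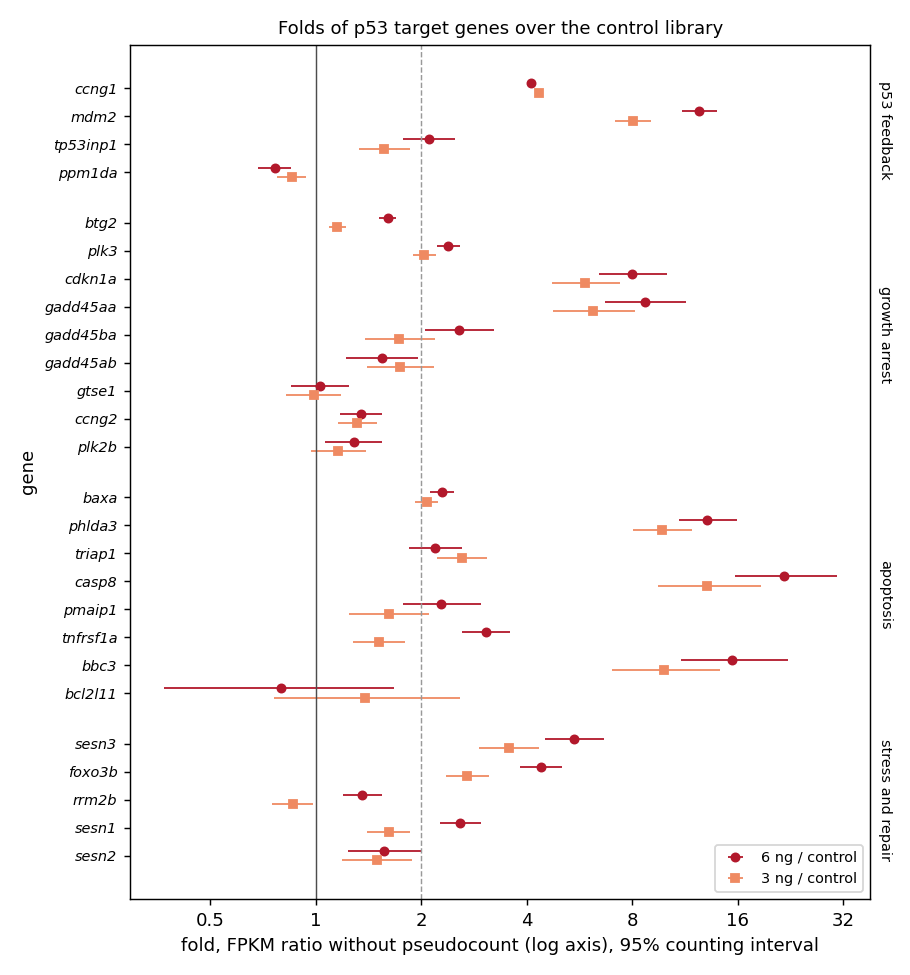
Folds over the control library of the 26 measured p53 target genes at 6 ng (circles) and at 3 ng (squares) of hnrnpaba morpholino, as FPKM ratios without a pseudocount on a log axis, with 95% exact counting intervals as bars. The solid line marks a fold of 1 and the dashed line a fold of 2. casp8, bbc3, phlda3 and mdm2 lie farthest to the right, and ppm1da lies left of 1 at both doses.

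Of the 5 measured genes of metabolic stress and repair, sesn3 and foxo3b were past 2-fold at both doses. sesn3 belongs to the sestrins, which restrain mTORC1 and oxidative stress (ENSDARG00000015822, chromosome 15, 35043007 to 35092735, plus strand). It stood at 51.1 FPKM at 6 ng, 33.3 FPKM at 3 ng and 9.36 FPKM in the control, with folds of 5.46 (4.505 to 6.65) and 3.55 (2.92 to 4.34). sesn1 stood at 10.7, 6.67 and 4.13 FPKM in that order, with folds of 2.59 (2.26 to 2.97) and 1.61 (1.40 to 1.86). sesn2 stood at 5.88, 5.598 and 3.749 FPKM, with folds of 1.57 (1.24 to 1.997) and 1.49 (1.19 to 1.88). The folds of sesn1 and sesn2 at 3 ng had overlapping intervals, and the interval of sesn3 lay above those of both at each dose.

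foxo3b, a forkhead transcription factor of stress and survival, stood at 34.5 FPKM at 6 ng, 21.3 FPKM at 3 ng and 7.85 FPKM in the control (ENSDARG00000042904, chromosome 20, 32286765 to 32332736, minus strand). Its folds were 4.39 (3.83 to 5.05) and 2.71 (2.36 to 3.12), whereas its paralog foxo3a stood at 7.31 FPKM at 6 ng, 7.80 FPKM at 3 ng and 10.4 FPKM in the control. rrm2b, the p53-inducible ribonucleotide reductase subunit that supplies nucleotides for repair, stood at 25.001 FPKM at 6 ng, 15.8 FPKM at 3 ng and 18.4 FPKM in the control. It was thus above the control at 6 ng and below it at 3 ng, in each case by less than 2-fold. zmat3, a zinc finger RNA-binding protein gene, was at 0.503 FPKM at 6 ng, 0 at 3 ng and 0.0520 FPKM in the control. These were recovered as 9, 0 and 1 fragments, the fewest that fit the values, which allow no statement on direction at 3 ng.

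Outside the counts, rps27l, a ribosomal protein S27-like gene induced by p53 in mammals, was named from its identifier, since the symbol column gives it a clone name (ENSDARG00000100513, chromosome 25, 34641536 to 34650374, plus strand). It stood at 525 FPKM at 6 ng, 413 FPKM at 3 ng and 30.9 FPKM in the control. Its folds were 17.0 (15.3 to 19.0) and 13.4 (12.0 to 14.9), and 2 genes of the whole table had a larger log2 difference at each dose. The related genes rps27.1 and rps27.2 did not share this difference. rps27.1 stood at 999.9, 1298 and 1129 FPKM at 6 ng, at 3 ng and in the control, and rps27.2 at 376, 470 and 352 FPKM, though reads of such similar genes cannot be divided with certainty. ei24, an endoplasmic reticulum protein gene, stood at 12.4 FPKM at 6 ng, 10.5 FPKM at 3 ng and 14.3 FPKM in the control.

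The place of the target genes among all genes was uneven. Among the 100 genes with the largest log2 difference at 6 ng were mdm2, cdkn1a, bbc3, gadd45aa, phlda3, casp8 and rps27l, and at 3 ng the same 7 and ccng1. At the other end, ppm1da and gtse1 lay below the median difference of all genes at both doses, as did ei24. The 28 genes lay on 18 chromosomes, with at most 3 on any of them, and no label or header names the build of these coordinates. sesn1 (32152355 to 32231157) and foxo3b (32286765 to 32332736) lay near each other on chromosome 20. btg2 (336256 to 339623) and cdkn1a (603382 to 607812) lay farther apart on chromosome 22. In each pair the folds differed (2.59 and 4.39, and 1.60 and 8.01, at 6 ng).

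**Figure D3:**
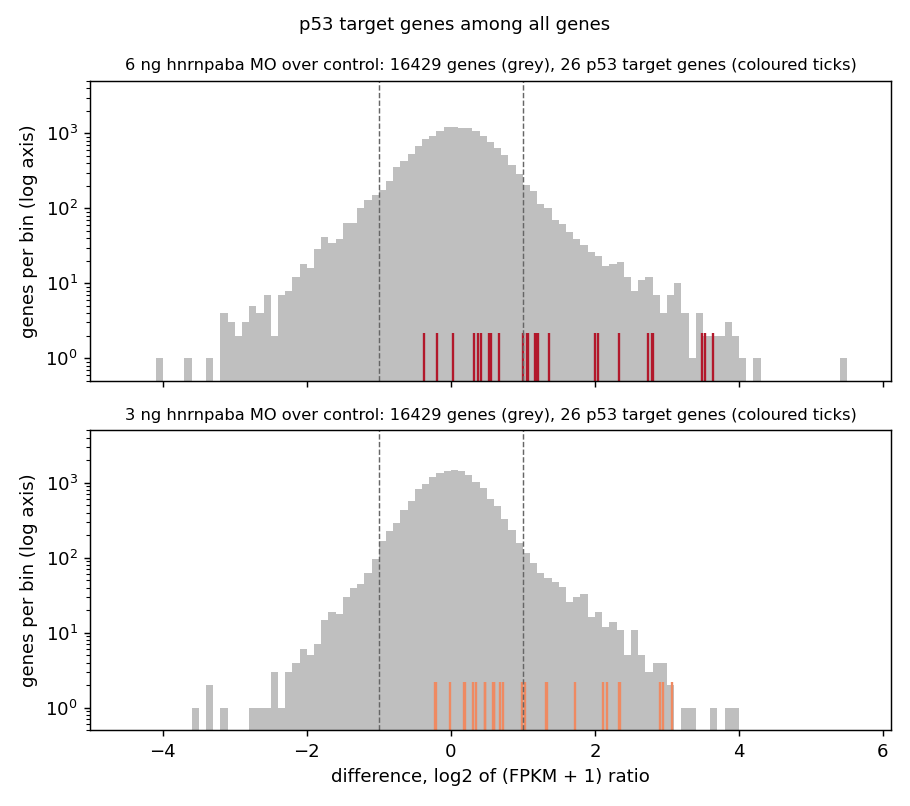
Distribution of the log2 difference in FPKM + 1 over the control for 16429 genes (grey bars, log axis of genes per bin), at 6 ng in the upper panel and at 3 ng in the lower panel. Coloured ticks mark the 26 p53 target genes, and dashed lines mark 2-fold differences. The ticks run from -0.37 to 3.64 at 6 ng and from -0.22 to 3.06 at 3 ng.

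The 6 ng library was then compared with the 3 ng library, 2 masses of the same morpholino, without the control. None of the 26 genes was 2-fold apart on the log2 scale with its pseudocount (0 higher and 0 lower, against 1.11% and 0.992% of all genes), but most stood above their 3 ng level. The counting interval of the fold lay above 1 for 17 of the 26 and below 1 for 3, against 28.2% and 17.6% of all genes, and it included 1 for 6. The median log2 difference was 0.43, against 0.05 over all genes. tnfrsf1a had the largest fold, 2.02 (1.78 to 2.30), followed by casp8 at 1.65 (1.49 to 1.84), foxo3b at 1.62 (1.48 to 1.78) and sesn1 at 1.60 (1.44 to 1.79). mdm2 had a fold of 1.55 (1.47 to 1.62) and cdkn1a one of 1.36 (1.22 to 1.52).

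The genes outside the 17 with intervals above 1 did not stand higher at 6 ng than at 3 ng beyond counting error. ccng1 had a fold of 0.947 (0.935 to 0.960), triap1 one of 0.837 (0.737 to 0.951) and ppm1da one of 0.895 (0.805 to 0.995). gadd45ab, sesn2, ccng2, plk2b, gtse1 and bcl2l11 had intervals that included 1. The order of levels was 6 ng, then 3 ng, then control in 19 of the 26 genes and in 31.0% of all 16429 genes.

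**Figure D4:**
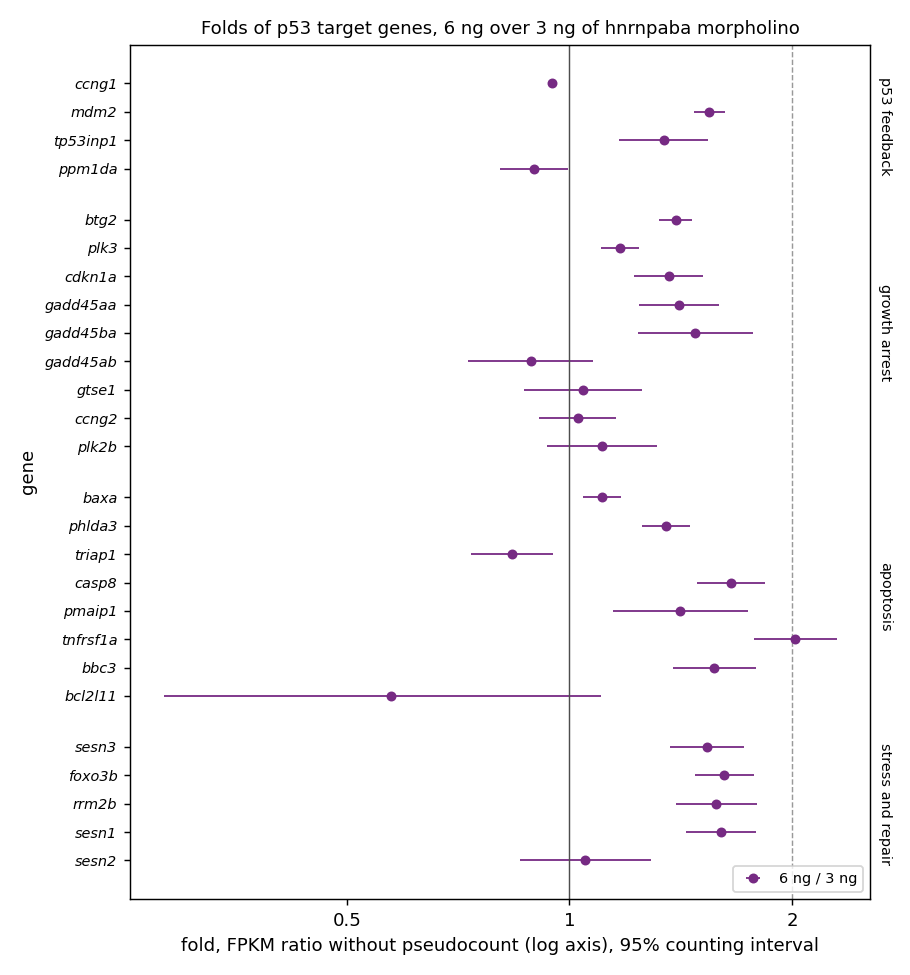
Folds of the 26 measured p53 target genes at 6 ng over 3 ng of hnrnpaba morpholino, as FPKM ratios without a pseudocount on a log axis, with 95% exact counting intervals as bars. The solid line marks a fold of 1 and the dashed line a fold of 2. tnfrsf1a, at 2.02, has the largest fold, and bcl2l11 has the widest interval.

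Among genes listed as p53 regulators, only cdkn2a/b was 2-fold or more from the control. At the shares of all genes, a list of this size would hold few such genes, so the low count does not set the regulators apart. Of 27 regulators measured, 1 was at least 2-fold higher and 0 lower at either dose, against 6.28% of all genes higher and 4.53% lower at 6 ng, and 3.68% and 2.2% at 3 ng. Their median log2 difference was -0.18 at 6 ng and -0.12 at 3 ng, against 0.08 and 0.02 over all genes. The counting interval lay below 1 for 15 of the 27 at 6 ng and for 12 at 3 ng, against 28.0% and 29.2% of all genes. It lay above 1 for 6 at each dose, against 38.5% and 32.0%. cdkn2a/b is named after a tumour suppressor locus whose Arf product restrains Mdm2 in mammals. Whether the zebrafish gene makes such a product cannot be read from these data, so no role in p53 regulation is shown for it. cdkn2a/b stood at 9.87 FPKM at 6 ng, 3.98 FPKM at 3 ng and 0.173 FPKM in the control. These were recovered as 53, 28 and 1 fragments, the fewest that fit the values. The folds of 57.0 (9.80 to 2295) and 23.0 (3.81 to 941) have very wide intervals because of the single control fragment. Like bbc3, cdkn2a/b passed the filter on mean level through its morphant values. mdm4, which encodes an Mdm2-related inhibitor of p53, stood at 20.4 FPKM at 6 ng, 25.8 FPKM at 3 ng and 23.9 FPKM in the control. The damage kinase gene chek1 stood at 10.4, 13.7 and 20.1 FPKM in that order, and atm at 2.21, 2.45 and 2.31 FPKM.

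Among other genes described as p53 targets, the median log2 difference was 0.17 at the higher dose and 0.16 at the lower, against 0.08 and 0.02 over all genes. Of 39 measured, 5 were at least 2-fold higher and 1 lower at 6 ng, against 6.28% and 4.53% of all genes. At 3 ng, 2 were higher and 0 lower, against 3.68% and 2.2% of all genes. The counting interval lay above 1 for 18 of the 39 at 6 ng and for 14 at 3 ng, against 38.5% and 32.0% of all genes. It lay below 1 for 9 at 6 ng and for 12 at 3 ng, against 28.0% and 29.2%. ddit4, an inhibitor of mTORC1, stood at 25.5 FPKM at 6 ng, 18.96 FPKM at 3 ng and 9.15 FPKM in the control. baxb, the second bax gene, stood at 5.86, 3.15 and 2.05 FPKM in that order. The nucleotide excision repair genes xpc (3.69, 4.20 and 5.62 FPKM) and ddb2 (4.02, 3.34 and 4.73 FPKM) were not above the control in either morphant library. The gene gadd45gb.1, given above with its family, was the 1 gene of this list past 2-fold on the lower side at 6 ng.

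The cell cycle genes that p53 is known to lower through p21 and the DREAM repressor complex stood mostly below the control. The part of p53 in their levels here was not tested. Of 35 measured, 3 (e2f1, bub1 and nusap1) were at least 2-fold lower and 0 higher at 6 ng, and 0 lower and 1 (birc5b, from few fragments) higher at 3 ng. The shares over all genes were 4.53% lower and 6.28% higher at 6 ng, and 2.2% lower and 3.68% higher at 3 ng. The counting interval lay below 1 for 27 of the 35 at 6 ng and for 25 at 3 ng, against 28.0% and 29.2% of all genes. It lay above 1 for 3 of the 35 at 6 ng and for 6 at 3 ng, against 38.5% and 32.0% of all genes. Their median log2 difference was -0.42 at 6 ng and -0.30 at 3 ng, set against 0.08 and 0.02 for all genes. e2f1, a transcription factor of S phase entry, stood at 3.37 FPKM at 6 ng, 4.499 FPKM at 3 ng and 8.93 FPKM in the control. mki67, the proliferation marker, stood at 42.8, 54.8 and 84.2 FPKM in that order.

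**Figure D5:**
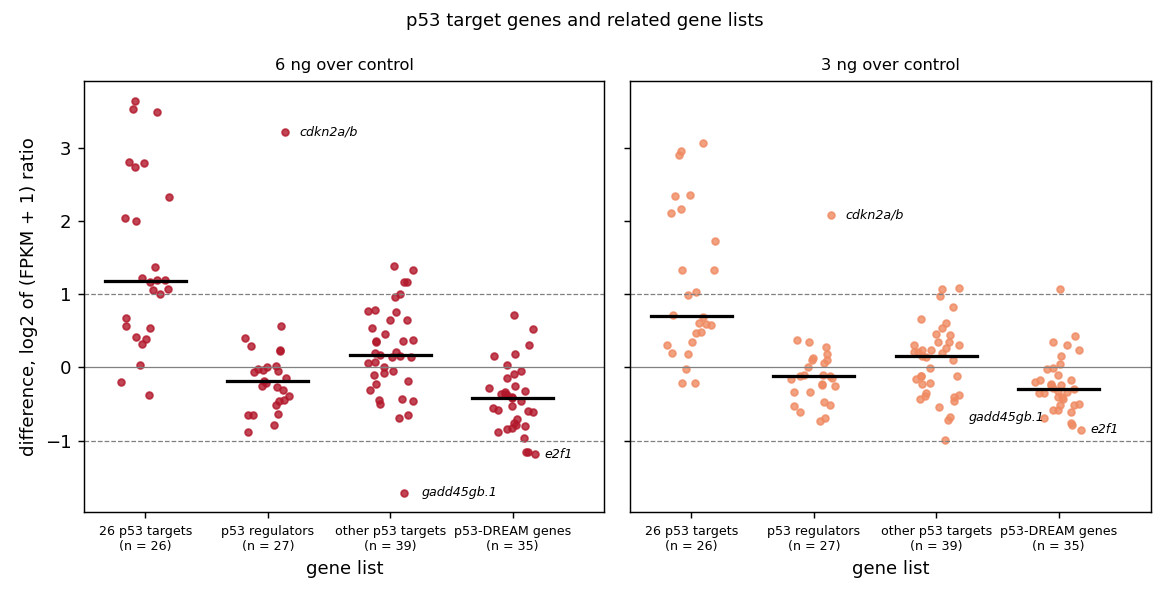
Log2 difference in FPKM + 1 over the control at 6 ng (left) and at 3 ng (right) for the 26 p53 target genes and 3 related lists, 1 point per gene with small random sideways shifts, and black bars at the medians. The p53 regulators have medians of -0.18 and -0.12, with cdkn2a/b far above the others, and the p53-DREAM cell cycle genes have medians of -0.42 and -0.30.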

How the data were processed

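RNA of 30 pooled embryos per library was sequenced on a BGISEQ-500 and mapped to a zebrafish genome, per the labels' protocols. No source used here names the aligner, counter, build or strandedness. The authors deposited 1 table of FPKM values. The hnrnpaba columns were matched to libraries by name, and the control column was matched as the 1 control of the series. Python 3.11.15, numpy 2.4.6, pandas 2.3.3 and scipy 1.17.1 were used.

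FPKM steps gave each library's total and, for 99.99% of genes, fragments, as the shortest gene length that makes all 3 libraries whole (tolerance at most 0.05 fragments). A length too short by a common factor makes counts too low and intervals too wide. The recovery and the 2-fold rule were tried on simulated data that held counting error only. Differences between pools of embryos were not simulated, so the 2-fold rule was not checked against them. Exact (Clopper-Pearson) 95% intervals, conditional on the fragments of both libraries, cover counting error only. Differences are log2 ratios of FPKM + 1, which understates low genes, called at 2-fold among genes averaging at least 1 FPKM over the libraries. With 1 library per group there is no test. Every gene of the list found is named, and for related lists up to 3 genes farthest from the control each way, with family members beside them; xpc, ddb2, chek1, atm, mdm4 and mki67 were chosen after their values were seen. Some genes of the related lists are not reported here. Roles were assigned with the values known. Members and lists were chosen with earlier results of these data known. Other gene names came from a table of identifiers. Alternatives were other pseudocounts, filters, thresholds, scalings and the identifier matches.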

Additional observations from a re-analysis of the deposited data

Results flagged for a closer look

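rrm2b was flagged because its folds over the shared control ran in opposite directions at the 2 doses. The counting intervals of rrm2b excluded 1 in each case. Its fold was 1.36 (1.19 to 1.54) at 6 ng and 0.858 (0.7504 to 0.982) at 3 ng. The fold of 6 ng over 3 ng was 1.58 (1.39 to 1.79). The intervals leave out differences between pools of embryos, and the difference between doses was not tested beyond counting error. rrm2b came from a search of the 28 genes for this pattern. The share of all genes that show it was not taken, so it is not known whether the pattern is unusual. The related subunit gene rrm2 stood at 27.8 FPKM at 6 ng, 23.6 FPKM at 3 ng and 31.0 FPKM in the control.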

How the results depend on the processing

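The directions of the medians and the absence of genes at least 2-fold lower held under each alternative run. The median log2 difference at 6 ng over the control was 0.84 with a pseudocount of 5 FPKM, against 1.18, by the construction of that scale. At a 3-fold threshold, 9 genes were higher at 6 ng than in the control, against 1.98% of all genes. Between 6 ng and 3 ng, 7 genes were higher at a 1.5-fold threshold (5.17% of all genes) and 1, tnfrsf1a, with a pseudocount of 0.1 FPKM (2.59%), against 0. A pseudocount of 5 FPKM lost gadd45ba, pmaip1, sesn1, tnfrsf1a and triap1 at 6 ng and baxa at 3 ng, and left 11 and 10 genes. Rescaling by the median ratio lost pmaip1 and triap1 at 6 ng and baxa at 3 ng, and left 14 and 10. Rescaling to equal sums lost baxa at 3 ng. A pseudocount of 0.1 FPKM added tp53inp1 at 6 ng and plk3 at 3 ng. With rps27l and ei24, a setting chosen after seeing the data, 17 and 12 genes were higher. No paired analysis was possible because each group has 1 library. Over all genes, the share at least 2-fold higher at 6 ng was 9.83% with a pseudocount of 0.1 FPKM and 1.91% with 5 FPKM, against 6.28%. Depth limits fas, zmat3, bcl2l11, cdkn2a/b, birc5b and casp8l2, each with fewer than 20 recovered fragments in the control. Recovered fragments are the fewest that fit the FPKM values.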

Other observations

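Relatives of the target genes that are outside the 31 were also followed. Some of them, such as baxb, gadd45ga and gadd45bb, were already counted among the other p53 targets, and plk1 among the cell cycle genes. The counts of these lists therefore overlap. Of 24 measured rows, 6 were at least 2-fold higher and 0 lower at each dose. The shares over all genes were 6.28% and 4.53% at 6 ng, and 3.68% and 2.2% at 3 ng. The median log2 difference of the 24 was 0.12 at 6 ng and 0.20 at 3 ng, against 0.08 and 0.02 over all genes. phlda2, an imprinted growth regulator gene in mammals and a paralog of phlda3, stood at 65.8 FPKM at 6 ng, 46.3 FPKM at 3 ng and 10.8 FPKM in the control, with folds of 6.08 (5.23 to 7.09) and 4.28 (3.68 to 4.996). phlda1 stood at 12.8, 15.4 and 4.16 FPKM in that order. isg20, described in the table as an interferon-stimulated exonuclease gene, stood at 129 FPKM at 6 ng, 115 FPKM at 3 ng and 32.1 FPKM in the control, with folds of 4.02 (3.70 to 4.37) and 3.58 (3.30 to 3.89).

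The other genes of the p21 family of cyclin-dependent kinase inhibitors went in both directions. cdkn1ba stood at 25.6 FPKM at 6 ng, 26.2 FPKM at 3 ng and 11.5 FPKM in the control, and cdkn1ca at 59.3, 61.2 and 38.1 FPKM. cdkn1bb stood at 15.5, 15.9 and 20.9 FPKM in that order, cdkn1cb at 4.77, 4.95 and 7.27 FPKM, and cdkn1d at 0.858, 0.932 and 1.97 FPKM. For none of these 5 did the fold of 6 ng over 3 ng differ from 1 beyond counting error, whereas for cdkn1a it was 1.36 (1.22 to 1.52).

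Of the other paralogs, baxb was past 2-fold at 6 ng. casp8l2, a caspase 8-like gene, stood at 1.34 FPKM at 6 ng, 0.4005 FPKM at 3 ng and 0.365 FPKM in the control, levels far under those of casp8 in the morphant libraries. Its folds were 3.68 (1.90 to 7.68) and 1.096 (0.486 to 2.54), from 12 fragments in the control, and its mean level was under 1 FPKM. baxb, the second bax gene, stood at 5.86, 3.15 and 2.05 FPKM in that order, with folds of 2.86 (1.95 to 4.27) and 1.54 (1.02 to 2.34). plk2a stood at 5.94, 4.81 and 5.31 FPKM, tnfrsf1b at 3.64, 2.88 and 2.32 FPKM, btg1 at 129.0, 93.7 and 75.4 FPKM and btg3 at 16.8, 18.4 and 19.9 FPKM, all less than 2-fold from the control. The 2 rows with the symbol tp53inp2 stood at 9.91 and 13.8 FPKM at 6 ng, 12.1 and 17.5 FPKM at 3 ng, and 17.5 and 16.5 FPKM in the control.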
